A study of Homo sapiens with 16 samples.

Results

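L1236 is an established human Hodgkin lymphoma cell line. Its cells were infected with a retrovirus carrying a doxycycline-inducible hairpin directed at RELB, the NF-kB protein through which the alternative pathway acts on DNA, and were then left uninduced or given doxycycline. The comparison described here stays within the uninduced cells: the 2 arrays titled B_4 (Un_1 and Un_4) were set against the 2 titled B_1 (Un_1 and Un_4). These are 4 of the 8 arrays of the series, which appear as 16 samples because each array was summarised once by gene and once by exon. The members are all 19460 gene-level probe sets, of 33297, that the platform annotation pairs with exactly 1 gene symbol, and they cover 18417 genes. All 4 arrays share the line, the hairpin retrovirus, RPMI medium with serum and the absence of doxycycline, so an uninfected or hairpin-free control was not part of the comparison. The labels do not say what the B codes or the last numbers stand for. Nor do they say that the arrays came from separate cultures, so every p-value reflects no more than array-to-array spread, part or all of which may be technical.

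Values are log2 signals from Affymetrix whole-transcript arrays after robust multi-array averaging (RMA), so a difference of 1 is a doubling. A difference is the B_4 mean minus the B_1 mean, and ± after it is its standard error (SE). A gene passed the test when limma, a linear model that shares the estimate of spread across all probe sets, gave a Benjamini-Hochberg adjusted p under 0.05. The number of arrays limits the precision.

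Hodgkin and Reed-Sternberg cells are B cells that have lost most of their B-cell programme and live on constant NF-kB and JAK-STAT signalling. Cells short of amino acids, or with stress in the endoplasmic reticulum, phosphorylate the initiation factor eIF2alpha. This integrated stress response slows translation in general while it favours translation of the transcription factor ATF4, which in turn switches on amino acid transporters, amino acid synthesis enzymes and tRNA synthetases. Because ATF4 is controlled largely at the level of translation, its mRNA is not a direct readout of its activity. Replication-dependent histone genes, by contrast, are expressed mainly in S phase.

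Defining markers were checked against the label of the line. Of 8 Hodgkin cell markers, 7 lay above the median of all probe sets, and TRAF1 lay at percentile 43.2. PAX5 lay at percentile 88.7, whereas the B-cell markers MS4A1, CD79A and CD79B lay at percentiles 21.1, 40.9 and 50.2. All 4 T-cell markers lay below percentile 25, and their summed log2 level was 17.7, 17.8, 17.4 and 18.0 in B_1 Un_1, B_1 Un_4, B_4 Un_1 and B_4 Un_4. The summed level of the 4 fibroblast markers was 21.2, 21.4, 21.2 and 22.0 in the same order, that of the 4 myeloid markers 16.6, 16.3, 16.8 and 17.0, that of the 2 erythroid markers 10.7, 10.8, 10.8 and 10.9, and that of the 3 epithelial markers 15.5, 15.6, 15.5 and 16.3. None of these non-lymphoma markers passed the test, and B_4 Un_4 had the highest sum in each of these cell types. The same array had the highest sum for the lymphoma's own markers. In the same order, the Hodgkin cell markers summed to 62.53, 62.64, 62.44 and 62.94, and the measured B-cell markers to 25.4, 25.5, 25.2 and 26.3. Its median over the whole array, 5.88, was the highest as well.

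B_4 and B_1 cells differed in 1317 of 19460 probe sets (6.77%). In B_4, 407 probe sets were higher (2.09%) and 910 were lower (4.68%), so that 69.1% of the calls were lower in B_4. Differences of 1 log2 unit or more were called in 14 probe sets higher and 38 lower. All 1317 calls had the same direction for both last numbers. A call already requires a difference that is large against the spread within pairs, so this agreement is no separate support. Profiles correlated at 0.9964 between the B_1 arrays and at 0.9961 between the B_4 arrays, against 0.9908 to 0.9929 between arrays of different B codes. The median size of the B code difference was 0.13, against 0.08 for the last number, and the median signed difference over all probe sets was 0.02. By a rule of size alone, 193 probe sets (0.992%) had both B_4 values above both B_1 values with means at least 0.5 apart, and 579 (2.98%) the reverse. With no limit on size, 5197 probe sets (26.7%) had both B_4 values above both B_1 values, and 4864 (25%) the reverse. Pairs that do not overlap are thus common and say little by themselves. Leaving out array B_4 Un_4 lowered the count of calls to 623, and a fit that takes its spread from all 8 arrays of the series called 411, all of them among the 1317.

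The plainest pattern was a lower level of integrated stress response genes in B_4. Of 29 measured genes on the list for this response and amino acid supply, 21 were lower in B_4, 1 was higher and 7 did not pass, where 4.68% of all probe sets were lower. The median difference of the 29 genes was -0.60, against 0.02 over all probe sets, and 25 of the 29 differences were negative, also after quantile normalisation and median centring. The number of lower genes ran from 12, in the fit of all 8 arrays, to 23 across the alternative settings. This list, like the others, was chosen with earlier results of these data known, so the count is a description.

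**Figure D1:**
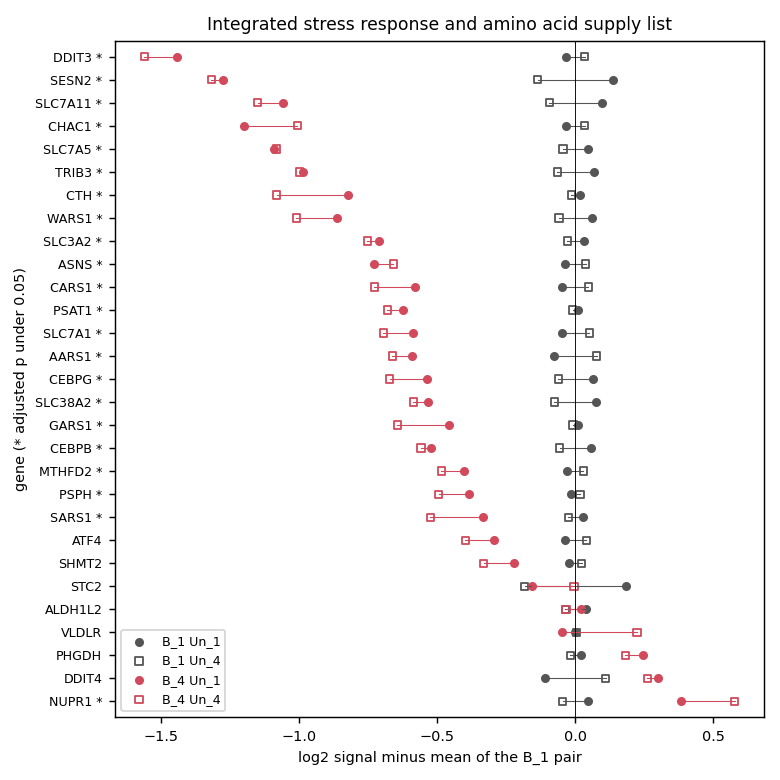
Log2 signal of each stress response and amino acid supply gene, minus the mean of its B_1 pair, in the 4 uninduced arrays. Grey symbols are B_1 and red symbols B_4, circles are last number 1 and squares last number 4, a line joins the arrays of a pair, and a star marks a limma adjusted p under 0.05. The 21 starred genes from DDIT3 to SARS1 have both B_4 arrays to the left of both B_1 arrays, and NUPR1 is the starred gene on the right.

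Transcription factors and regulators come first. DDIT3, which encodes the stress transcription factor CHOP, read 10.72 and 10.78 in B_1 Un_1 and B_1 Un_4 and 9.31 and 9.19 in B_4 Un_1 and B_4 Un_4. Both B_4 arrays lay more than a doubling below both B_1 arrays, and the difference of -1.50 ± 0.11, a 2.83-fold lower level, had an adjusted p of 7.1e-05 by limma. In the exon-level summary, where DDIT3 has 1 probe set, the difference was -0.61 and the adjusted p 0.150. PPP1R15A encodes GADD34, the phosphatase subunit that reverses eIF2alpha phosphorylation. It read 9.87 and 9.84 in B_1 and 8.51 and 8.36 in B_4, a difference of -1.42 ± 0.11 (adjusted p 0.000105), and it was named through its size, since the list does not hold it. TRIB3, a pseudokinase induced by ATF4 and CHOP, read 9.13 and 8.997 in B_1 and 8.08 and 8.06 in B_4, again without overlap (-0.99 ± 0.11, adjusted p 0.000524, and 0.0617 at exon level). SESN2, a leucine sensor that restrains the growth kinase mTORC1, read 8.37 and 8.10 against 6.96 and 6.91 (-1.30 ± 0.12, adjusted p 0.000337). CEBPG and CEBPB, partners of ATF4 on DNA, were lower by smaller amounts, with differences of -0.60 and -0.54. ATF4 itself read 11.04 and 11.12 in B_1 and 10.79 and 10.68 in B_4. Its pairs did not overlap either, as in 25% of all probe sets in that direction. The ATF4 difference of -0.35 ± 0.11 did not pass (adjusted p 0.0756). NUPR1, a small stress-induced chromatin protein, was the 1 member higher in B_4: it read 5.12 and 5.02 in B_1 and 5.45 and 5.65 in B_4 (0.48 ± 0.11, adjusted p 0.0258), but its call was lost with all 8 arrays (adjusted p 0.247), at exon level (0.204), after quantile normalisation (0.0585), without B_1 Un_4 (0.0901) and without B_4 Un_4 (0.138).

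Amino acid import and use showed the same direction. SLC7A5, the light chain of the large neutral amino acid transporter, read 10.77 and 10.68 in B_1 and 9.63 and 9.64 in B_4 (-1.09 ± 0.10, adjusted p 0.000337). Its heavy chain SLC3A2 read 10.02 and 9.96 against 9.27 and 9.23 (-0.73 ± 0.10, adjusted p 0.00209). Both subunits were thus lower in both B_4 arrays. SLC7A11, the cystine importer that also pairs with SLC3A2, read 8.29 and 8.10 against 7.14 and 7.04 (-1.10 ± 0.11, adjusted p 0.000465, and 0.0902 in the fit of all 8 arrays). CHAC1, which degrades glutathione, read 8.10 and 8.16 against 6.93 and 7.12 (-1.10 ± 0.11, adjusted p 0.000465). Among enzymes, the pairs again did not overlap. CTH, which makes cysteine from cystathionine, read 7.81 and 7.78 against 6.97 and 6.71 (-0.95 ± 0.12, adjusted p 0.000979, and 0.0789 with all 8 arrays). ASNS, asparagine synthetase, read 9.11 and 9.19 against 8.42 and 8.49 (-0.69 ± 0.10, adjusted p 0.003), and its call was lost with all 8 arrays (adjusted p 0.191) and at exon level (0.0513). PSAT1 of serine synthesis differed by -0.65, and its call held in each alternative setting run. PSPH, of the same pathway, and MTHFD2 of mitochondrial folate metabolism each differed by -0.44, and both calls were lost with all 8 arrays, after quantile normalisation and without B_1 Un_1, B_1 Un_4 or B_4 Un_4, at adjusted p of up to 0.193 and 0.147. The other serine and one-carbon genes did not pass: SHMT2 differed by -0.28, PHGDH by 0.21 and ALDH1L2 by -0.01. DDIT4 (0.28), VLDLR (0.09) and STC2 (-0.08) make up the remainder of the 7 genes that did not pass.

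Further lists, for the synthetases and transporters, were drawn up after the values were seen and are descriptions only. The cytosolic synthetase and transporter lists share genes with the stress response list, such as WARS1, SLC7A5 and SLC7A11. Calls of shared genes are counted in both and are not further ones. Of 19 measured cytosolic aminoacyl-tRNA synthetases, the enzymes that load amino acids onto tRNA for translation in the cytosol, 9 were lower in B_4 and 0 higher, with a median difference of -0.38. For this and the next counts, 4.68% of all probe sets were lower and 2.09% higher. WARS1, which loads tryptophan, read 11.69 and 11.57 in B_1 and 10.77 and 10.62 in B_4 (-0.94 ± 0.11, adjusted p 0.000807). MARS1 for methionine read 11.91 in both B_1 arrays and 11.27 and 11.16 in B_4 (-0.69 ± 0.11, adjusted p 0.00307). Their pairs lay well apart, whereas HARS1 for histidine (0.02 ± 0.11) and VARS1 for valine (0.01 ± 0.11) differed by less than their errors, and RARS1 for arginine had a positive difference of 0.31 that did not pass (adjusted p 0.0969). Of 16 measured mitochondrial synthetases, encoded by separate genes, 0 were lower, 1 (SARS2, 0.44) was higher, and the median was 0.06. Of 21 amino acid transporters, 7 were lower and 1 was higher. SLC1A4, a neutral amino acid transporter, was among the lower ones (8.26 and 8.35 against 7.52 and 7.37). The higher one, the glutamine transporter SLC38A5, read 8.41 and 8.57 in B_1 and 9.29 and 9.20 in B_4 (0.76 ± 0.11, adjusted p 0.00226).

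The promoters of these genes were compared because so many of them moved together. Stretches from 250 bases before to 50 bases after the start of each gene were taken from RefSeq (GRCh38.p14) and searched on both strands for TGATGNAA, the core of the composite element that C/EBP and ATF proteins such as ATF4 bind. No other motif was searched. A window was found for 24 of the 29 listed genes, and 6 of the 24 (25%) held the letters, against 3.67% of all 27305 windows and 361 of 14239 windows (2.54%) of tested genes. The 6 are among the 19 windows of lower genes (31.6%), and none is among the 5 windows of genes that were not lower, in a list made up mostly of lower genes. The list was drawn up largely from genes known to respond to ATF4, so its share is no independent evidence of that factor. A match describes letters and does not show binding, and the absence of one says only that these letters are not in this window. The upstream 250 bases of 3 of the genes are printed 5′ to 3′ in the direction of transcription because they show where the letters lie relative to the start. Capitals mark the match, which on the opposite strand reads TTGCATCA, and positions are counted upstream from the start.
ASNS, minus strand, chr7:97872409-97872658: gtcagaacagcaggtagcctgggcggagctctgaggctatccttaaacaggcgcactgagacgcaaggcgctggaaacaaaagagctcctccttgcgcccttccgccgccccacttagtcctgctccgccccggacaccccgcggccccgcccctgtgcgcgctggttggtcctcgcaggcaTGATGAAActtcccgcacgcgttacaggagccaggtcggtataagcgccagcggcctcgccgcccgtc
CHAC1, plus strand, chr15:40953221-40953470: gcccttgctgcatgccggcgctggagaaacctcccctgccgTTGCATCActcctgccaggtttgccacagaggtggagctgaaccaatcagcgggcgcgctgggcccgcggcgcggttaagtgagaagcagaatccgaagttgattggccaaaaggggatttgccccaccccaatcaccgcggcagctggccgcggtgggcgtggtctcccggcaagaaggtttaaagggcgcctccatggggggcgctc
AARS1, minus strand, chr16:70289507-70289756: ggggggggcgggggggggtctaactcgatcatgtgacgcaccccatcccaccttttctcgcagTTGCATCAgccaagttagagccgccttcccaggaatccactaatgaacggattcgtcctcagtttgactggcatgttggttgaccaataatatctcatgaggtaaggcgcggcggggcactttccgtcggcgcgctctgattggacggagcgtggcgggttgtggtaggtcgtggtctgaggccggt
The match begins at position -68 in ASNS, -209 in CHAC1 and -187 in AARS1, and these genes differed by -0.69, -1.10 and -0.63. In the other 3 genes it lay at or after the start: CARS1 (position -2, TTGCATCA), SLC7A1 (8, TGATGAAA) and SLC3A2 (38, TTACATCA), which differed by -0.65, -0.64 and -0.73.

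Genes of the endoplasmic reticulum divided. Of 20 measured genes of the unfolded protein response, 6 were higher and 3 lower in B_4, with a median difference of 0.13. Among all probe sets 2.09% were higher and 4.68% lower. The lower ones serve disposal of misfolded proteins or translational control. SEL1L, the adaptor of the degradation complex of the reticulum, read 10.08 and 10.10 in B_1 and 9.14 and 9.09 in B_4 (-0.98 ± 0.10, adjusted p 0.00052). HERPUD1, of the same degradation machinery, read 10.74 and 10.59 against 9.79 and 9.73 (-0.91 ± 0.11, adjusted p 0.000867). DNAJC3, an inhibitor of the eIF2alpha kinases, differed by -0.42. The higher ones were chaperones and folding helpers of the reticulum: HSP90B1 read 10.94 and 10.90 in B_1 and 11.57 and 11.46 in B_4 (0.59 ± 0.10, adjusted p 0.00727), and SDF2L1 (0.70), PDIA4 (0.59), CRELD2 (0.50), CALR (0.47) and MANF (0.41) had the same direction. No pair of HSP90B1, SEL1L or HERPUD1 overlapped. Across the alternative settings 2 to 9 genes were higher and 2 to 5 lower. Among 16 heat shock proteins of other compartments 3 were higher (HSPE1, HSPH1 and FKBP4) and 15 of 16 differences were positive, with a median of 0.22, but only 1 passed when any single array was left out.

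Of 24 measured histone genes, 12 were higher in B_4, 0 were lower and 12 did not pass, where 2.09% of all probe sets were higher. All 24 differences were positive, here and after quantile normalisation and median centring, with a median of 0.43. H2AC4, a core histone H2A gene, read 8.60 and 8.61 in B_1 and 9.65 and 9.57 in B_4 (1.001 ± 0.10, adjusted p 0.000507). H3C8, a histone H3 gene, read 7.51 and 7.32 against 8.62 and 8.40 (1.09 ± 0.12, adjusted p 0.00056). H4C3, a histone H4 gene, read 9.86 and 9.94 against 10.77 and 10.84 (0.91 ± 0.10, adjusted p 0.000754, and 0.115 at exon level). Both B_4 arrays exceeded both B_1 arrays for each of these genes. Linker histones H1-5 (0.63) and H1-2 (0.58) passed as well, while the variants H2AX (0.36, adjusted p 0.0566) and H2AZ1 (0.15, adjusted p 0.425) did not. H2BC5, H4C9 and H2BC4 had overlapping pairs and differences of 0.05, 0.07 and 0.09. Histone genes of a class are near-identical in sequence, so the assignment of signal to a single copy is uncertain. The count ran from 5, at exon level, to 19 across the alternative settings.

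**Figure D2:**
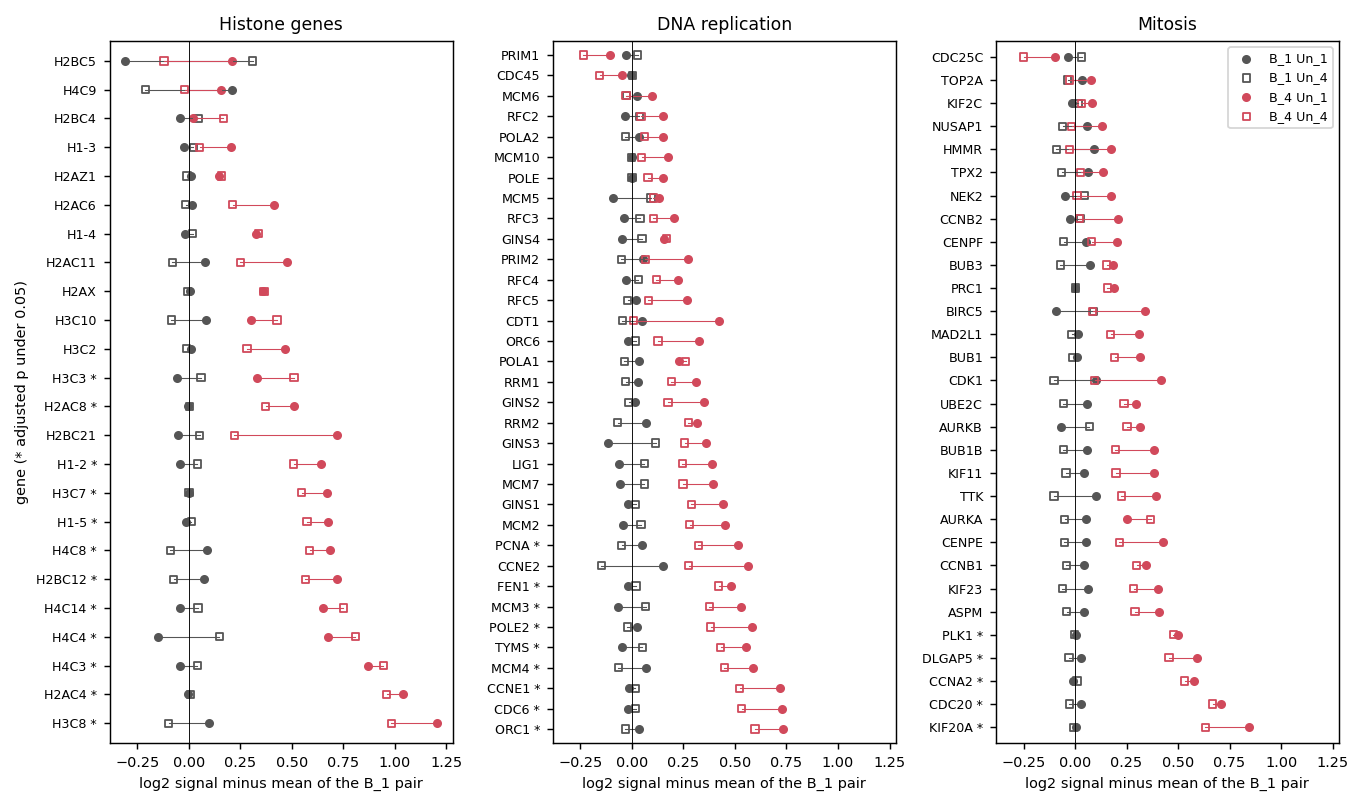
Log2 signal minus the mean of the B_1 pair, in the 4 uninduced arrays, for the histone, DNA replication and mitosis lists (left to right, 1 shared scale); symbols and stars are as in the plot of stress response genes. All 24 histone genes, 32 of 34 replication genes and 29 of 30 mitosis genes have a positive mean difference.

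Other genes of the cell division cycle were shifted less. Of 34 DNA replication genes, 9 were higher and 0 lower (median 0.26), with 32 positive differences. Among all probe sets 2.09% were higher, and 10425 of 19460 differences were positive. ORC1, the largest subunit of the origin recognition complex, read 7.80 and 7.74 in B_1 and 8.50 and 8.37 in B_4 (0.66 ± 0.11, adjusted p 0.00435). CDC6, which loads the replicative helicase, read 8.75 and 8.79 against 9.50 and 9.30 (0.63 ± 0.11, adjusted p 0.00693), and CCNE1, the cyclin of S phase entry, differed by 0.62 (adjusted p 0.00757). The count was 3 without B_4 Un_1, 5 without B_1 Un_4 and 18 with a variance trend and robust fitting. Of 30 mitosis genes, 5 were higher and 0 lower (median 0.26): KIF20A, CDC20, CCNA2, DLGAP5 and PLK1. KIF20A, a kinesin of cytokinesis, read 8.02 and 8.01 against 8.86 and 8.65 (0.74 ± 0.11, adjusted p 0.00306). CDC20, the activator of the anaphase-promoting complex, read 9.21 and 9.16 against 9.89 and 9.85 (0.69 ± 0.10, adjusted p 0.003). The shares of S phase and mitotic cells were not measured, and in these bulk RNA samples more cells in a phase and more RNA per cell cannot be told apart.

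Of 33 measured hypoxia and glycolysis genes, 10 were higher in B_4, 1 was lower and 22 did not pass, where 2.09% of all probe sets were higher and 4.68% lower (median 0.24, 27 positive differences). ALDOC, an aldolase of glycolysis, read 7.72 and 7.89 in B_1 and 9.04 and 8.99 in B_4 (1.20 ± 0.11, adjusted p 0.000337). BNIP3, a mitophagy receptor induced by hypoxia, read 7.68 and 7.81 against 8.87 and 8.68 (1.03 ± 0.11, adjusted p 0.00056). SLC2A1, the glucose transporter GLUT1, read 9.27 and 9.31 against 9.91 and 9.94 (0.63 ± 0.10, adjusted p 0.00463, and 0.0991 with all 8 arrays). In each case both B_4 arrays were the higher ones. LDHA, ALDOA, TPI1 and GPI of glycolysis were higher by 0.59, 0.52, 0.52 and 0.45, and P4HA2, PFKFB4 and ANKRD37 complete the 10. The lower gene was BHLHE40, a hypoxia-induced repressor (-0.53, adjusted p 0.0172). VEGFA (-0.31), ADM (0.03), NDRG1 (0.06) and PDK1 (-0.04), also known hypoxia targets, did not pass. Between 4 and 17 genes were higher across the alternative settings. None of 23 oxidative phosphorylation genes passed (median 0.07).

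**Figure D3:**
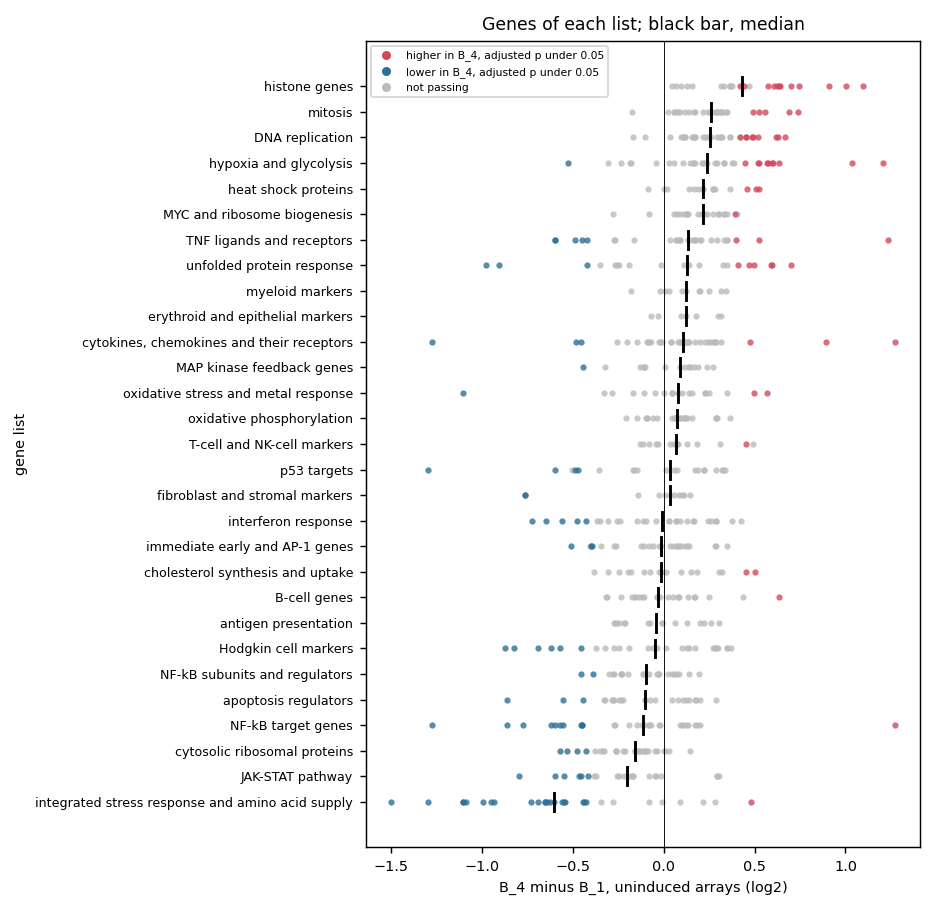
Each point is a gene and shows its B_4 minus B_1 difference in log2 units in the uninduced arrays, for 29 gene lists ordered by their median (black bar). Red points were higher and blue points lower in B_4 at a limma adjusted p under 0.05, grey points did not pass. The integrated stress response list has the lowest median (-0.60) and the histone list the highest (0.43).

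RELB, the target of the uninduced hairpin, read 7.23 and 7.38 in B_1 and 7.54 and 7.45 in B_4. Both B_4 arrays were slightly higher, as in 26.7% of all probe sets. The difference of 0.20 ± 0.11 did not pass (limma adjusted p 0.324). A two-sided exact permutation test gave 0.333, the smallest p that 2 arrays against 2 allow. The other subunits did not pass: NFKB1, the p50 precursor, differed by -0.28 (adjusted p 0.136), REL by -0.12, RELA by -0.08 and NFKB2, the p52 precursor, by 0.07. Among 22 subunits and regulators, 2 inhibitors were lower, where 4.68% of all probe sets were lower. TNFAIP3, the deubiquitinase A20, read 8.87 and 8.77 against 8.40 and 8.32 (-0.46 ± 0.11, adjusted p 0.0254), and NFKBID, a nuclear IkB protein, differed by -0.39 (adjusted p 0.0484). Neither call held with all 8 arrays (adjusted p 0.344 and 0.274), after quantile normalisation or at exon level. Both were also lost when B_1 Un_1 or B_4 Un_4 was left out. The NFKBID call was lost as well with the replicate block and when either other array was left out.

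NF-kB target genes were lower in part. Of 30, 10 were lower and 1 higher in B_4, with a median difference of -0.12. Among all probe sets 4.68% were lower and 2.09% higher. IL6, a cytokine of Hodgkin tumours, read 9.46 and 9.24 in B_1 and 8.26 and 7.89 in B_4 (-1.27 ± 0.14, adjusted p 0.000524). CFLAR, the FLIP inhibitor of death receptor signalling, read 10.28 and 10.36 against 9.45 and 9.46 (-0.86 ± 0.10, adjusted p 0.000924), and the adhesion molecule ICAM1 10.39 and 10.35 against 9.60 and 9.59 (-0.77 ± 0.10, adjusted p 0.00162). The B_4 arrays were the lower ones in all of these. The costimulatory ligands CD80 (-0.62) and CD86 (-0.57), the receptor TNFRSF9 (-0.60), the survival factor BCL2L1 (-0.55), and LTA, EBI3 and CCL22 (-0.45 each) complete the 10. The chemokine CXCL10, a target of interferon as well, had the opposite direction: it read 9.02 and 9.10 in B_1 and 10.40 and 10.26 in B_4 (1.27 ± 0.11, adjusted p 0.000254). Other classical targets did not pass, among them TNF (-0.27), CCL17 (0.17), BCL2A1 (0.10), CCL5 (-0.07), IRF1 (-0.08) and CCL3 (-0.02). Between 3 and 12 targets were lower across the alternative settings.

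Lists that describe the Hodgkin cell overlap with these. Of 26 genes on the Hodgkin list, 6 were lower and 0 higher, and CD80, CD86 and CCL22 among the 6 are also on the target list. The median was -0.05, and 4.68% of all probe sets were lower. CD274, the immune checkpoint ligand PD-L1, read 10.38 and 10.31 in B_1 and 9.56 and 9.38 in B_4 (-0.87 ± 0.11, adjusted p 0.00117). PDCD1LG2, which encodes PD-L2, read 9.95 and 9.66 against 9.05 and 9.18 (-0.69 ± 0.12, adjusted p 0.00721). The transcription factor GATA3 read 10.43 and 10.40 against 9.57 and 9.60 (-0.83 ± 0.10, adjusted p 0.00111). These genes were lower in both B_4 arrays, while the diagnostic marker TNFRSF8 (CD30) had a positive difference of 0.35 that did not pass (adjusted p 0.0799). Of 22 JAK-STAT genes, 6 were lower and 0 higher (median -0.20). STAT5A, a transcription factor of the pathway, read 9.37 and 9.51 against 8.69 and 8.60 (-0.79 ± 0.11, adjusted p 0.0018, and 0.086 with all 8 arrays). The kinase JAK3 differed by -0.60, STAT3 by -0.55 and the kinase PIM2 by -0.47. The JAK-STAT count was 3 without B_1 Un_1, 3 without B_1 Un_4 and 1 without B_4 Un_4. Of 28 interferon response genes, 5 were lower and 0 higher, with USP18, which removes the ubiquitin-like ISG15, the lowest at -0.73 (adjusted p 0.0029, and 0.0843 at exon level). That count was 2 without B_4 Un_4.

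TNF family genes and cytokines moved both ways. Of 29 TNF ligands and receptors, 3 were higher and 5 lower, where 2.09% of all probe sets were higher and 4.68% lower. TNFRSF17, the plasma cell receptor BCMA, read 5.24 and 5.48 in B_1 and 6.65 and 6.53 in B_4 (1.23 ± 0.12, adjusted p 0.000337). At exon level its difference was 0.43 and did not pass (adjusted p 0.125), and 3 of its 8 exon probe sets were lower in B_4. FAS and TNFRSF10B, both death receptors, differed by -0.60 and -0.49. The lower count was 1 without B_1 Un_1, 3 without each of the other arrays and 0 with all 8 arrays, and the higher count was 1 without B_4 Un_1. Of 36 cytokines, chemokines and receptors, 3 were higher (CXCL10, CCL2 and IL12A) and 3 lower (IL6, CCR7 and CCL22, with 1 passing without B_4 Un_4). CCL2 read 5.71 and 6.32 in B_1 and 6.75 and 7.06 in B_4, so its B_1 arrays lay far apart (0.89 ± 0.17, adjusted p 0.012, and 0.0694 without B_4 Un_4).

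The remaining lists held few calls each, though for some of them the share that passed exceeded that of all probe sets. Among all probe sets 6.77% passed, 2.09% higher and 4.68% lower. The share was 4.55% for MYC and ribosome biogenesis, 6.67% for MAP kinase feedback, 4.55% for B-cell and 6.25% for T-cell and NK-cell genes. It was 0% for antigen presentation, myeloid, and erythroid and epithelial genes. Above 6.77% were p53 targets (20%), fibroblast and stromal genes (18.2%), oxidative stress and metal response (14.3%) and cytosolic ribosomal proteins (13.3%). So were apoptosis regulators (12.5%), immediate early genes (12%) and cholesterol genes (11.1%). Of 30 cytosolic ribosomal protein genes, 4 were lower and 0 higher (median -0.16). Negative differences numbered 27 of 30, and 25 of 30 after quantile normalisation. RPL13, a protein of the large subunit, read 11.61 and 11.60 in B_1 and 11.08 and 10.99 in B_4 (-0.57 ± 0.10, adjusted p 0.00855, and 0.274 at exon level, where the difference was -0.25). That count was 2 without B_1 Un_1, 2 without B_1 Un_4 and 1 without B_4 Un_4. Of 20 p53 targets 4 were lower, SESN2 among them, and 2 of these passed without B_1 Un_1. Of 24 apoptosis regulators 3 were lower (CFLAR, BCL2L1 and BAK1), and 1 passed without B_1 Un_1. Of 25 immediate early genes 3 were lower (JUND, BATF and ATF3), a count of 0 without B_1 Un_1 and without B_4 Un_4. Of 18 cholesterol genes 2 were higher (STARD4, 0.45, and EBP, 0.50), and 0 passed without B_1 Un_1, B_4 Un_1 or B_4 Un_4. The nucleolar protein gene NCL (0.39) was the 1 of 22 MYC and ribosome biogenesis genes that was higher, and its call was lost without any single array, with the replicate block, with all 8 arrays and at exon level. Of 15 MAP kinase feedback genes DUSP6 was lower (-0.44), a call that held only without B_1 Un_1 among the arrays left out. Of 21 oxidative stress and metal response genes 2 were higher (MT1F, 0.57, and PRDX1, 0.50, with 1 passing without B_1 Un_4 or B_4 Un_1) and SLC7A11 was lower. Among 22 B-cell genes FCRLA passed (0.63, but 0.26 at exon level with an adjusted p of 0.262) and none was lower. None of 16 measured antigen presentation genes passed. Of lists for other cell types, 1 of 16 T-cell and NK-cell genes was higher (SH2D1A, 0.45, a call lost with the replicate block, with all 8 arrays, at exon level, without B_1 Un_1 and without B_4 Un_1, at adjusted p of up to 0.135), 2 of 11 fibroblast and stromal genes were lower (FAP and FN1, -0.76 each), and 0 of 11 myeloid and 0 of 7 erythroid and epithelial genes passed.

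Small nucleolar RNA genes, counted as a class after the values were seen, included the largest rise. Of 175 probe sets for them, 18 were higher and 3 lower, with a median difference of 0.10. Among all probe sets 2.09% were higher and 4.68% lower. SNORD14E, a box C/D RNA that lies within an intron of the chaperone gene HSPA8, read 5.76 and 5.84 in B_1 and 7.71 and 7.57 in B_4 (1.84 ± 0.11, a 3.58-fold higher level, adjusted p 1.29e-05). SNORD14C, of the same host gene and family, read 8.35 and 8.15 against 9.35 and 9.20 (1.03 ± 0.11, adjusted p 0.000618). Both were higher in both B_4 arrays. HSPA8 mRNA had a positive difference of 0.28 that did not pass (adjusted p 0.149). SNORD44, SNORD74, SNORD75, SNORD77, SNORD78, SNORD79 and SNORD81 lie within introns of 1 non-coding gene, GAS5. All but SNORD79 (0.28, adjusted p 0.140) were higher in B_4, with SNORD75 at 0.75 and SNORD74 at 0.72. SNORD75 read 8.36 and 8.30 in B_1 and 9.13 and 9.04 in B_4. SNORD30 was higher by 0.85. Family members are alike in sequence, so the signal of a single copy is uncertain.

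The largest fall of all, that of SPX, and several other large falls belong to genes outside the lists. SPX, which encodes the peptide hormone spexin, read 8.04 and 7.75 in B_1 and 5.64 and 5.46 in B_4 (-2.35 ± 0.13, a 5.09-fold lower level, adjusted p 8.82e-06). BMP10, a ligand of the BMP family, read 6.50 and 6.70 against 4.76 and 5.31 (-1.56 ± 0.16, adjusted p 0.000465). SLC25A27, a mitochondrial uncoupling protein, read 7.84 and 7.62 against 6.38 and 6.22 (-1.43 ± 0.12, adjusted p 0.000218). Their pairs did not overlap, although the B_4 arrays of BMP10 lay 0.5 or more apart. AKR1C2, an aldo-keto reductase (-1.39), GSTM2, a glutathione transferase (-1.14), and CYP4F12, a cytochrome P450 (-1.14), were among the 15 largest falls. The GSTM2 difference was -0.40 at exon level and did not pass there (adjusted p 0.0951). AKR1C2 and GSTM2 have close paralogs, so their signal may be shared with them. CLNK, an immune adaptor (-1.39), P2RX7, an ATP-gated channel (-1.13), PHF24 (-1.13), ZNF674 (-1.18) and CSTA, a protease inhibitor (-1.12), were also among them. Largest rises besides those given were GPR15, a chemoattractant receptor (9.32 and 9.15 in B_1, 10.52 and 10.37 in B_4, 1.21 ± 0.11), TMEM45A (1.19), the histone gene H2AC14 (1.18), the transporter SLC22A10 (1.12), SMIM10 (1.12), the orphan receptor GPR158 (1.11) and HMGN5, a nucleosome-binding protein (0.97).

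Few B code differences passed the test in the arrays labelled induced. These are other arrays, so the comparisons share no values. In the fit of all 8 arrays, B_4 and B_1 differed in 19 of 19460 probe sets there (0.0976%), 5 higher and 14 lower, against 411 among the uninduced arrays in the same fit. Of the 1317 calls, 760 (57.7%) had the same sign among induced arrays, and 2 passed there in the same direction. Over all tested probe sets the share with the same sign was nearly as large, 10933 of 19460 (56.2%). The calls had a median size of 0.52 in the uninduced arrays, on which they were chosen, and of 0.11 in the induced arrays. For all tested probe sets these medians were 0.13 and 0.10. The difference of the differences was tested as an interaction: 56 probe sets passed (0.288%), of which 48 are among the 1317 calls. The interaction contains the uninduced difference by which these calls were chosen, so much of this overlap is built in. For most of the 1317 calls, then, the differences were not shown to differ between induction labels. Signal also differed between the labels, for some genes by far more than between B codes. Among 24 named genes and list members past the interaction test, the induced minus uninduced mean ran from -5.62 (GPR15) to 1.01 (SNORD14E). Whether the cells under both labels were otherwise alike was not tested. In 32 of the 48 calls, all 4 induced arrays read below 6.31, the median of the uninduced means. In 14 of these they read below 4.74, percentile 25 of the uninduced means. At such levels a loss of the B code difference cannot be told apart from a loss of signal. Among the 874 calls with an induced array at or above 6.31, 546 (62.5%) had the same sign in induced arrays, and the median size was 0.51 uninduced and 0.11 induced. The stress response list had a median of 0.07 in induced arrays against -0.60 in uninduced ones, and 2 of its 29 genes, SLC7A5 and TRIB3, passed the interaction test (adjusted p 0.0339 and 0.0255). SLC7A5 differed by 0.20 and TRIB3 by 0.38 among induced arrays, where they read 9.82 to 10.40 and 7.19 to 7.95. DDIT3 differed by -0.24 there, and its interaction did not pass (adjusted p 0.257). Histone genes had a median of -0.01 in induced arrays, with H3C8 (-0.02, at 7.99 to 8.20) past the interaction test (adjusted p 0.0318). Hypoxia and glycolysis genes had a median of -0.10, with ALDOC (-0.07) and BNIP3 (-0.20) past the test, but ALDOC read 5.847 to 6.197 and BNIP3 4.44 to 4.75 in the induced arrays. SNORD14E differed by 0.04 at 7.58 to 7.91 (interaction adjusted p 0.00377). SPX differed by -0.12, but it read only 3.31 to 3.44 in the induced arrays (interaction adjusted p 0.000561). CXCL10 had a difference of 0.81 ± 0.21 among induced arrays that did not pass there (adjusted p 0.338), and its interaction did not pass either (adjusted p 0.706). TNFRSF9 had negative differences under both labels, -0.60 uninduced and -1.17 induced. In the limma fit of all 8 arrays the induced difference passed (adjusted p 0.0107) and the uninduced one did not (adjusted p 0.063).

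**Figure D4:**
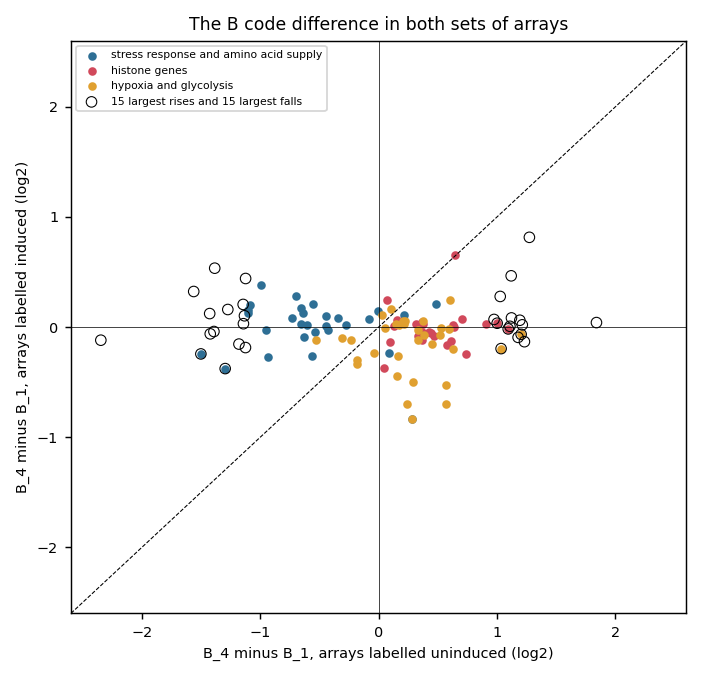
B_4 minus B_1 difference in log2 units among arrays labelled uninduced (horizontal) and among arrays labelled induced (vertical), for 3 gene lists in colour, with circles around the 15 largest rises and 15 largest falls of the uninduced arrays. The dashed line marks equal differences; SPX lies at -2.35 and -0.12, SNORD14E at 1.84 and 0.04, and CXCL10 at 1.27 and 0.81.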

How the data were processed

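Total RNA extracted with TRIZOL was converted to sense-strand cDNA, labelled with biotin and hybridised to Affymetrix arrays, per the labels. The values deposited by the authors are signals on a log2 scale, made with RMA, and Partek is the other tool in the submitters' processing notes; neither has a version there. No source gives the log base, and 2 fits RMA's habit and values between 2.1 and 14.1. RMA aligns array distributions before it summarises probes, so much of a shift of all genes would be hidden, although array medians still ran from 5.82 to 5.88. It also compresses dim signals. The build, the annotation version, filters, scan dates and slides were not given in the sources used here. All 4428 features in both summaries were identical, so exon-level values served only as an alternative.

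Of 33297 probe sets, 19460 had 1 symbol in the platform annotation, 1754 several and 12083 none; 19429 were updated through RefSeq gene identifiers. Limma 3.58.1 in R 4.3.3 fitted the B code to the 4 arrays, with 2 residual and 9.65 prior degrees of freedom, no filter and Benjamini-Hochberg adjustment over all 19460. The interaction came from 4 group means over 8 arrays. Calling was tested on simulated data, with independent noise for each array drawn from the spread that limma itself had estimated. The main test found 38% of differences of 0.5 log2 and 100% of those of 1 log2. The interaction test found 2% and 56%. A gene that did not pass may therefore still differ. False calls made up 5.59% and 1.56% of the calls of these tests in the simulated data. These shares follow largely from the simulated model, which held no effect shared by a culture or batch. They are therefore not error rates of the real calls. Genes with several probe sets are given by the one with the highest mean. Named were the NF-kB subunits, the 15 largest rises and falls past the threshold, moving alike for both last numbers and at or above percentile 25 in mean signal, the 3 lowest p of each of 29 lists, and 4 interactions per direction. Other list members named were chosen for their roles after their values were seen. The comparison, lists and rule were chosen with earlier results of these data known. No p is adjusted over a list alone. Alternatives were a replicate block, all 8 arrays, filters, quantile normalisation, median centring, 1 or averaged probe sets per gene, exon-level means, a variance trend with robust fitting, a threshold of 0.1 and each array left out. Figures used matplotlib.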

Additional observations from a re-analysis of the deposited data

Results flagged for a closer look

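The B_4 minus B_1 difference was not the same in arrays labelled induced as in uninduced arrays for 24 of the named genes and list members, by the interaction term of the 8-array limma fit at an adjusted p under 0.05. The values below are the induced difference minus the uninduced difference, in log2 units. Many of these genes were named for a large uninduced difference. That difference is part of the interaction, so such genes were favoured and their interactions are no separate support.

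Induced levels differed widely among these genes, and an interaction of a gene with little signal in the induced arrays cannot be told apart from its loss of signal. In 9 of the 24, all 4 induced arrays read below 4.74, the level at percentile 25 of the uninduced means. The value was 2.23 for SPX (induced levels 3.31 to 3.44), 1.92 for AKR1C2 (3.94 to 4.73), 1.89 for BMP10 (3.58 to 4.08), 1.55 for SLC25A27 (3.70 to 4.02), 1.43 for IL6 (3.74 to 3.99), 1.35 for CLNK (3.71 to 3.77) and 1.17 for CYP4F12 (4.57 to 4.70), all lower in B_4 when uninduced. It was -1.19 for GPR15 (4.15 to 4.32) and -1.13 for TMEM45A (3.41 to 3.54), both higher in B_4 when uninduced.

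A further 6 genes called in uninduced arrays read below the median of 6.31 in every induced array: CSTA (1.57, induced levels 5.28 to 5.79), GSTM2 (1.35, 4.47 to 4.78), GATA3 (1.08, 4.65 to 5.05), ALDOC (-1.27, 5.847 to 6.197), BNIP3 (-1.23, 4.44 to 4.75) and GPR158 (-1.10, 4.49 to 4.85). In 4 genes all induced arrays read above that median. The value was 1.37 for TRIB3 (7.19 to 7.95), 1.29 for SLC7A5 (9.82 to 10.40), -1.80 for SNORD14E (7.58 to 7.91) and -1.11 for H3C8 (7.99 to 8.20).

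In the other genes the larger difference lay among the induced arrays. For SLFN11, a restriction factor of stressed replication, the value was -2.12, with an induced difference of -1.84 and an uninduced one of 0.29. For TRIM59 it was -1.95 (induced -1.93, uninduced 0.01), and for CYRIA -1.63 (induced -1.17, uninduced 0.46). For the pseudogene DNM1P46 it was 1.61 (induced 1.11, uninduced -0.50), and for the interferon-induced gene XAF1 1.17 (induced 0.92, uninduced -0.24). TRIM59 read 3.33 to 5.50 and DNM1P46 4.89 to 6.18 in the induced arrays, below the same median. The CYRIA interaction was lost with the replicate block, after quantile normalisation and without any one of the 4 uninduced arrays (adjusted p of up to 0.124). That of AKR1C2 was lost with the block, after quantile normalisation, without B_1 Un_1, without B_4 Un_1 and without B_1 of last number 4 among the induced arrays (up to 0.104), and that of DNM1P46 without B_4 Un_4. The number of probe sets past the interaction test depended strongly on single arrays.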

How the results depend on the processing

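The 1317 calls were 411 with all 8 arrays in 1 fit (103 higher, 308 lower), 2417 with a filter at the median (827 higher, 1590 lower), 842 after quantile normalisation (518 lower), 2638 with a variance trend and robust fitting (922 higher, 1716 lower), 568 with exon-level means (164 higher, 404 lower) and 2170 at a threshold of 0.1 (736 higher, 1434 lower). With single arrays left out they ran from 623 (without B_4 Un_4) to 1212, with 236 to 331 higher and 387 to 909 lower. Lists held 126 genes past the threshold, each counted once: 56 with all 8 arrays, 212 with the median filter, 225 with the trend, 61 at exon level, and 81 to 98 with single arrays left out. Of the named genes 82 passed, and 51 at exon level. The 56 interactions were 29 after quantile normalisation, 94 with the trend, 136 at a threshold of 0.1, and 6 (without B_1 Un_1 or B_4 Un_4 of the uninduced arrays) to 147 (without B_1 of last number 1 among induced arrays). The cause of these shifts was not tested.

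The groups share last numbers, and deviations from the group means correlated at 0.03 between arrays of the same number. This value over all probe sets cannot show whether such arrays shared a culture, day or batch, which the labels do not state. With the replicate block, 1018 probe sets passed, 977 of them among the 1317, and the interaction count fell to 36. The last number itself gave 0 calls in that limma fit (1065 at an unadjusted p under 0.05), and no other tool was run.

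Sign changes were limited to small differences that did not pass: ALDH1L2 was 0.15 at exon level. With single arrays left out ALDH1L2 ran from -0.045 to 0.030, TRIM59 from -0.090 to 0.12, H2BC5 from -0.26 to 0.35, H4C9 from -0.14 to 0.28, VLDLR from -0.049 to 0.22 and STC2 from -0.27 to 0.10.

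A lone array left in a pair was assumed to vary like the other pair. No detection p or background signal was used, so dim probe sets were not told from background.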
